A study of Mus musculus with 3 samples.

Results

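The cells described here were the neutrophils found by single-cell RNA-seq in the brains of glioma-bearing mice: 139 of 4269 kept cells, with 44 in the vehicle library, 49 in the first niacin library and 46 in the second. A cell was taken as a neutrophil when transcripts of 7 genes, *S100a8*, *S100a9*, *Retnlg*, *Lcn2*, *Ngp*, *Camp* and *Ltf*, made up at least 2% of its unique molecular identifiers (UMIs, each a tag that counts 1 captured RNA molecule). The members were thus selected on these 7 genes, whose high levels are a description of the choice and not a finding. The mice were C57BL/6 females of 6 to 8 weeks that received BTIC0309 cells, brain tumor-initiating cells of NPcis mice (with *Nf1* and *Trp53* mutations) carrying firefly luciferase and GFP, in the right striatum. Niacin (vitamin B3) was injected intraperitoneally at 100 mg/kg daily from day 7 in 1 group, and saline vehicle in the other. All mice carried the implant, so no library came from a tumor-free brain. Tissue around the injection site was taken at week 4, pooled over mice (5 by the methods, 4 brain tissues by the labels), enriched for leukocytes on Percoll and sorted for live cells before 10x 3′ sequencing. Libraries niacin 1, niacin 2 and vehicle 2 were analysed; with 1 vehicle library, no difference between treatments could be tested.

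Neutrophils are short-lived granulocytes made in the bone marrow, and few are found in a healthy brain. Their granule proteins are made in sequence: enzymes of the primary granules in promyelocytes, then lactoferrin (*Ltf*), cathelicidin (*Camp*) and neutrophilic granule protein (*Ngp*) for the secondary granules in myelocytes and metamyelocytes. Mature cells stop making these messages, raise the receptors CXCR2 and G-CSF receptor (*Csf3r*), leave the marrow along gradients of CXCR2 ligands such as *Cxcl2*, and in inflamed tissue make cytokines such as interleukin-1β. S100A8 and S100A9 form calprotectin, a metal-binding antimicrobial protein of the cytosol, and remain abundant throughout.

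The libraries held 2145 to 2532 barcodes and 8301228 to 10359526 UMIs, and many barcodes stood in more than 1 library: 484 of 2270 in vehicle 2, 918 of 2145 in niacin 1 and 898 of 2532 in niacin 2. A shared barcode was kept only where it held at least 5 times the UMIs of its copy. Of the cells over the 2% mark, this left out 28, 24 and 27 in vehicle 2, niacin 1 and niacin 2, and 3, 20 and 17 of the remaining neutrophils still carried a shared barcode. The median neutrophil held 2396 UMIs in vehicle 2, 5989 in niacin 1 and 8755 in niacin 2, and the summed neutrophil UMIs were 152136, 433009 and 481138. Depth thus differed with treatment. The median share of mitochondrial UMIs was 0.685%, 0.778% and 0.593% in the neutrophils, against 5.33%, 2.80% and 3.55% in all other cells of the same libraries.

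Neutrophils made up 3.48% of kept cells in vehicle 2 (95% exact binomial interval 2.54 to 4.65), 3.47% in niacin 1 (2.58 to 4.57) and 2.89% in niacin 2 (2.12 to 3.83). The 3 intervals overlapped. The order turned with the selection rule: at a mark of 5% the shares were 1.503%, 3.33% and 2.70%, with vehicle 2 the lowest, and with other cells holding a UMI of at least 4 of 8 identity genes (*Csf3r*, *Cxcr2*, *Mmp9*, *Hdc*, *Il1r2*, *Trem1*, *Clec4d* and *G0s2*) added, an alternative chosen after seeing the data, they were 5.85%, 3.90% and 3.01%. Whether these added cells are neutrophils was not tested. The intervals cover counting error only, and the sort and the Percoll gradient can also set such shares. Without any shared barcode, 41, 29 and 29 neutrophils remained.

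The label was checked with neutrophil genes that the rule did not use. *Cxcr2* (chr1:74153989-74161246, GRCm38) stood at 1702, 612 and 520 CPM (UMIs of the gene per 1000000 UMIs) in the neutrophils of vehicle 2, niacin 1 and niacin 2, and at 20.5, 5.69 and 1.90 CPM in all other cells. *Ly6g* (chr15:75155240-75159126), the classical surface marker of mouse neutrophils, stood at 388, 781 and 1008 CPM, against 0.292, 0.518 and 0.356 CPM in the other cells. In each library both genes were higher in the neutrophils. In vehicle 2 nearly all *Ly6g* UMIs came from the 10 cells rich in *Ngp*, *Camp* and *Ltf* transcripts that are described below. The other 34 held 1 *Ly6g* UMI, so *Ly6g* gave no check of the label for them. *Cxcr2* stood at 3293 per 1000000 UMIs outside the selection genes in those 34 cells. The gene that led by ratio outside the 7 selection genes was *Wfdc21*, a small secreted protease-inhibitor-like protein, at 3918, 5792 and 5876 CPM. The next in order were *Mmp8* and *Mmp9*, the neutrophil collagenase and gelatinase, and *Anxa1*, annexin A1. *Cd177*, *Pglyrp1*, *Hp* and *Cebpe* were also among the leading 15, all products or regulators of the granulocyte line.

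The selection genes took very different shares of the neutrophils' RNA in the 3 libraries. Their median share per cell was 4.13% of UMIs in vehicle 2, 35.4% in niacin 1 and 40.8% in niacin 2. In vehicle 2, 25 of 44 cells lay under 5%, against 2 of 49 and 3 of 46 in the niacin libraries. At the 2% mark itself, the cells just inside stood at 2.01%, 3.70% and 2.09% and those just outside at 1.81%, 1.57% and 0.795%. Other cells had a median of 0%, 0.0341% and 0.0146%. These values chose the members and were not tested.

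**Figure D1:**
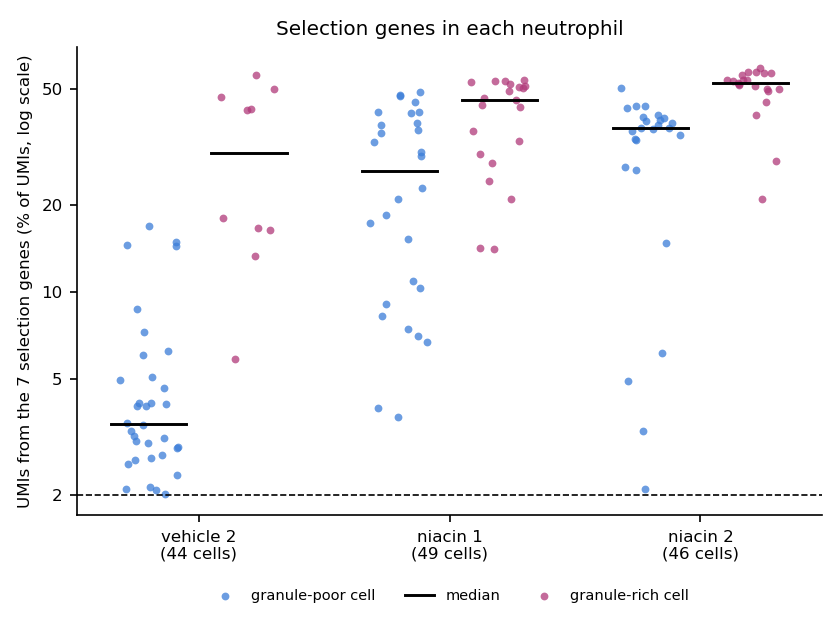
Each point is 1 neutrophil; the vertical log axis gives the share of its UMIs that came from the 7 selection genes, by library and by granule class (at least 1% of UMIs from *Ngp*, *Camp* and *Ltf*, or less), with bars at the medians and a dashed line at the 2% mark. Most vehicle 2 cells without granule transcripts lie close to the mark, while most niacin cells lie above 20%.

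Within the neutrophils, the secondary granule genes *Ngp*, *Camp* and *Ltf* separated 2 ranges of cells. Together they made up at least 1% of UMIs in 10, 21 and 21 cells of vehicle 2, niacin 1 and niacin 2 (22.7%, 42.9% and 45.7%), here called granule-rich, and less in 34, 28 and 25 granule-poor cells. The exact intervals of these shares, 11.5 to 37.8%, 28.8 to 57.8% and 30.9 to 61.0%, overlapped. Without shared barcodes, 7 of 41, 9 of 29 and 5 of 29 neutrophils were granule-rich, so niacin 2 stood close to vehicle 2. The secondary granule genes had no UMI in 28, 15 and 5 cells and took at least 5% in 6, 16 and 20. Near the division, between 0.5% and 2%, lay 1, 6 and 8 cells, so the classes are ranges of a score and not sorted types. Granule-rich cells held more RNA tags by the median, at 4670, 10745 and 14547 UMIs against 2396, 5182 and 6423. Shared barcodes were kept only where they were the deep copy, which raises this depth. The 7, 9 and 5 granule-rich cells without a shared barcode had medians of 764, 891 and 9778 UMIs. In vehicle 2 and niacin 1 these lay below the granule-poor medians. Granule-rich cells of vehicle 2 ran from 510 to 24904 UMIs.

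In granule-rich cells, *Ngp* and *S100a8* stood at like levels in the 3 libraries. *Ngp* stood at 45631, 45467 and 47581 CPM in granule-rich cells and at 129, 1429 and 2251 CPM in granule-poor cells. *S100a8* (chr3:90668978-90670035) stood at 178770, 180454 and 196752 CPM in granule-rich cells. In granule-poor cells it stood at 23014, 146188 and 137187 CPM. *Ngp* and *S100a8* are selection genes, and *Ngp* is among the genes that divide the classes. These values therefore describe the choice of members and classes. *Retnlg*, a resistin-like secreted protein of neutrophils, stood higher in granule-poor than granule-rich cells of the niacin libraries (29522 and 32396 against 7578 and 4455 CPM), and at 2096 and 2515 CPM in vehicle 2.

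As the selection genes share a cell type, their promoters were read for a motif of C/EBP factors, the transcription factors of granulocyte development. The motif TTGCNNAA (on either strand, in the 250 bases before the RefSeq start) lay in 5 of 7 selection genes and in 10.8% of 27025 genes with a window. The windows of *S100a9* (chr3:90695722-90695971, minus strand) and *Retnlg* (chr16:48872358-48872607, plus strand; both RefSeq on GRCm38.p6) are shown, 5′ to 3′ along each gene, with the match in capitals. A match describes the letters only and not a bound site.
S100a9: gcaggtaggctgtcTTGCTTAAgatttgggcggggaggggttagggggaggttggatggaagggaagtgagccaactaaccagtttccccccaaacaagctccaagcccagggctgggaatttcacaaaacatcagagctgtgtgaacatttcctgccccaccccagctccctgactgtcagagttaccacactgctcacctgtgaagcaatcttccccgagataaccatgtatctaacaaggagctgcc
Retnlg: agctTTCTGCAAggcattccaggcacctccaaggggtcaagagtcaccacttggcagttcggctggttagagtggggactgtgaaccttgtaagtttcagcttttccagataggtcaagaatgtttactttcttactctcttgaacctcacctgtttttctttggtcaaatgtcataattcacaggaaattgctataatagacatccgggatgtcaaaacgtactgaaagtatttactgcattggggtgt

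Granule-rich and granule-poor neutrophils were then compared across all genes, with the counts summed per library and class, library as a block and the 7 selection genes left out of counts and totals. Levels in this comparison are residual CPM, UMIs of the gene per 1000000 UMIs outside the selection genes. By edgeR's quasi-likelihood test, 226 of 2005 genes were higher in granule-rich cells (11.3%) and 271 were lower (13.5%) at an adjusted p under 0.05. *Chil3* and *Cebpe* were among the higher genes, and *Cxcr2*, *Il1b* and *Rsad2* among the lower ones. The classes were cut on values of these same cells, so the p-values grade how alike the 3 libraries were in a contrast drawn from the data. Without niacin 1 the counts were 51 and 106, without niacin 2 129 and 209, and without any shared barcode 30 and 33 of 693 genes.

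Genes higher in granule-rich cells are given first. *Chil3* (chr3:106147554-106167564), the chitinase-like lectin Ym1, stood at 9899, 15984 and 15310 residual CPM in granule-rich cells of vehicle 2, niacin 1 and niacin 2 and at 108, 218 and 83.3 in granule-poor cells. The groups did not overlap, and the log2 difference was 6.68 ± 0.47 (SE; edgeR adjusted p = 9.26e-06). *Fcnb*, ficolin B, had 126 UMIs in granule-rich cells and 0 in granule-poor cells, at least 38.0-fold higher against a floor of 3 UMIs over the group. *Orm1*, an acute-phase glycoprotein, had 132 and 0 UMIs, at least 39.8-fold higher against that floor. Of 12 tested secondary and tertiary granule genes, 5 rose and 0 fell, with a median log2 difference of 1.10 beside 0.03 over all genes tested.

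*Cebpe*, the transcription factor needed for secondary granules, stood at 980, 1158 and 866 residual CPM in granule-rich cells and at 27.1, 54.5 and 55.5 in granule-poor cells. Its log2 difference was 4.36 ± 0.39 (edgeR adjusted p = 4.97e-05). *Cybb*, the catalytic subunit of the NADPH oxidase that makes the oxidative burst, stood at 4228, 3466 and 4385 against 94.9, 354 and 796. It differed by 3.50 ± 0.48 on the log2 scale (edgeR adjusted p = 0.00039). *Lta4h*, the enzyme that makes leukotriene B4, differed by 4.49 and *Serpinb1a*, an inhibitor of granule proteases, by 4.22. Both tested cell cycle genes, *H2afz* (2.56) and *Hmgb2* (1.19), rose as well. Neither passed without shared barcodes (edgeR adjusted p = 0.152 and 0.464), nor did *Hmgb2* without niacin 1 (0.182) or niacin 2 (0.126). The cell cycle list took a median of 0.128%, 0.192% and 0.205% of UMIs per granule-rich cell, against 0.116%, 0.152% and 0.138% per granule-poor cell. Single granule-rich cells reached 1.42% in niacin 1 and 1.45% in niacin 2. Whether the rise rested on such cells was not tested. *Ly6g* stood at 1.76 on the log2 scale and missed the threshold (edgeR adjusted p = 0.0594). It passed under 9 of the alternatives, among them DESeq2 (adjusted p = 0.0314), every shared barcode left out (edgeR adjusted p = 0.0411) and vehicle 2 left out (edgeR adjusted p = 0.0130).

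The CXCR2 and G-CSF receptor genes and several cytokine genes were lower in granule-rich cells. *Cxcr2* stood at 412, 398 and 271 residual CPM in granule-rich cells and at 3293, 1925 and 1934 in granule-poor cells. Its log2 difference was −2.69 ± 0.33 (edgeR adjusted p = 0.00025; 0.0612 without shared barcodes). *Csf3r* (chr4:126024550-126044440) fell by 2.89 on the log2 scale, with 412, 256 and 271 against 4024, 2007 and 1490 residual CPM. *Il1b* (chr2:129364570-129371139), interleukin-1β, had 8 UMIs in granule-rich and 590 in granule-poor cells and differed by −5.86 ± 0.67 (edgeR adjusted p = 0.000168). Of 7 tested chemokine and cytokine genes 5 fell and 0 rose, among them *Ccl6* (−4.55) and *Cxcl2* (−3.37; edgeR adjusted p = 0.0585 without shared barcodes). Trafficking receptors were split: of 17 tested, 6 fell and 4 rose.

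Interferon-stimulated genes, the antiviral genes that interferons switch on, fell in 9 of 14 tested members and rose in 1, with a median of −2.52. Over all genes tested, 13.5% fell and 11.3% rose. Only 14 of the 30 listed genes were tested. As a summed share outside the selection genes, all 30 took 0.892%, 1.16% and 1.06% in granule-rich cells, against 2.35%, 2.23% and 1.17%. In niacin 2 the median per cell was higher in granule-rich cells, at 1.06% against 0.637%. *Rsad2*, the antiviral enzyme viperin, had 3 and 127 UMIs in granule-rich and granule-poor cells (−4.82 ± 0.58, edgeR adjusted p = 0.00022), and *Ifitm1* 10 and 947 (−7.02). The gene that rose was *Ifitm6*, by 2.11, and it missed the threshold without niacin 1 (edgeR adjusted p = 0.0541) and without the library block (0.200). *Fgl2*, *St8sia4* and *Ifi204* had 0 UMIs in the granule-rich cells against 157, 99 and 72, at least 57.9-fold, 36.5-fold and 26.5-fold lower. Of 12 granulocyte transcription factors 7 fell and 1 rose: *Junb*, an AP-1 factor, fell by 2.26. *Prkcd*, which encodes protein kinase Cδ, stood at −0.23 and did not pass (edgeR adjusted p = 0.635).

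**Figure D2:**
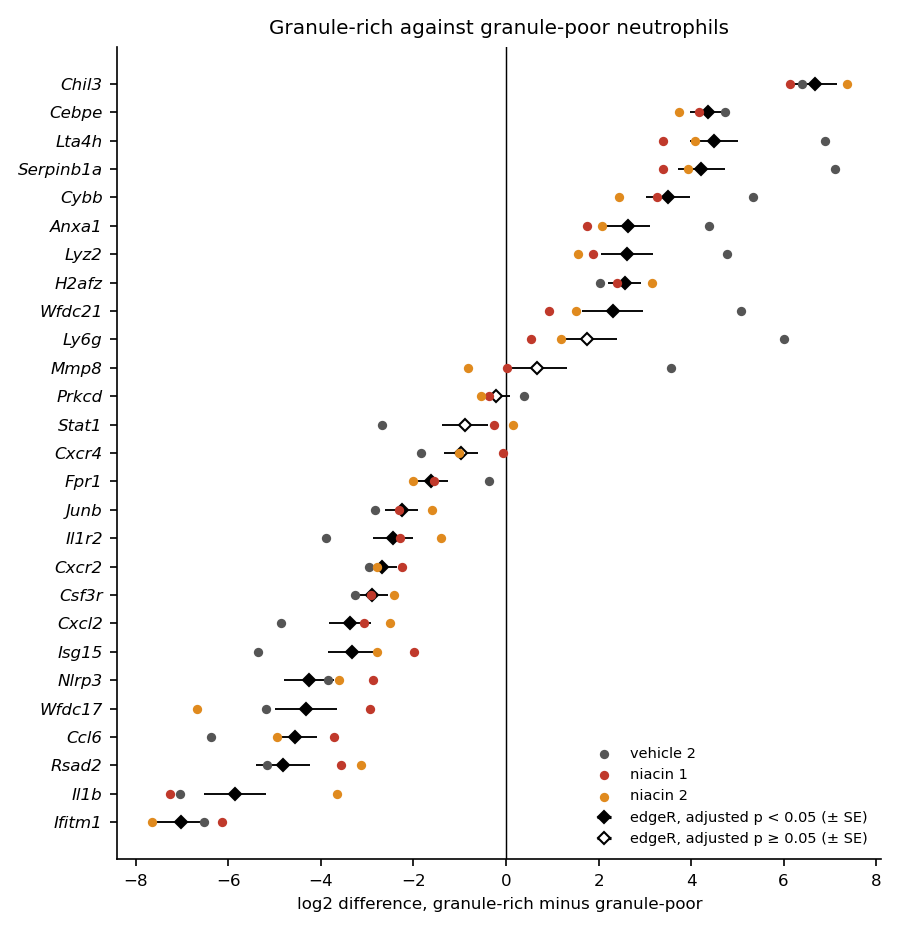
The horizontal axis gives the log2 difference between granule-rich and granule-poor neutrophils for 27 genes, with 1 coloured point per library and a diamond with its SE for the edgeR estimate, filled where the adjusted p is under 0.05. *Chil3*, *Cebpe* and *Lta4h* lie to the right of 0 in all 3 libraries, and *Il1b*, *Rsad2* and *Ifitm1* to the left.

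Niacin and vehicle libraries were compared by size only: a gene was past the fold when both niacin libraries were at least 2 times higher, or lower, than vehicle 2 on log2(CPM + 10), among genes with at least 50 CPM in at least 1 library. Over all neutrophils, 44 of 3027 genes were past the fold on the higher side (1.45%) and 729 on the lower side (24.1%), and the median log2 difference over genes was −0.67. Higher genes were thus 5.69% of those past the fold, but 29.4% when the selection genes were left out of the totals, and 50.8% when the differences were centred on their median. In vehicle 2 the selection genes took up a smaller share of the summed neutrophil UMIs, so the other genes together stood higher there in CPM. The comparison is therefore given for granule-poor cells in residual CPM, where 331 of 4189 genes were higher in niacin (7.9%) and 691 lower (16.5%), with a median of −0.31. Between the granule-poor cells of niacin 1 and niacin 2, the same fold was passed by 355 genes in 1 direction and 582 in the other, so within granule-poor cells differences of this size were about as common between libraries of 1 treatment. Over all neutrophils, the fold was passed by 60 and 59 of 3027 genes between niacin 1 and niacin 2. These comparisons used 2 libraries, and those with vehicle asked 2 libraries to move together.

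Genes of neutrophil identity were mostly higher in granule-poor cells of the niacin libraries: 13 of 25 were past the fold on the higher side and 2 on the lower, with a median log2 difference of 1.30 (11 and 1 without shared barcodes). The shares over all genes were 7.9% higher and 16.5% lower. With a selection mark of 5% in place of 2%, which kept 9, 26 and 22 granule-poor cells, 11 were higher and 5 lower with a median of 0.86, beside 946 higher and 1344 lower of 4549 genes in all. *Ly6g* stood at 13.6 residual CPM in vehicle 2 (1 UMI in 34 cells), 1108 in niacin 1 and 1073 in niacin 2. The first niacin value rested in part on cells with shared barcodes, without which the 3 values were 13.6, 220 and 1042. *Wfdc21* stood at 420, 6882 and 5210 residual CPM (420, 2324 and 5141 without shared barcodes), *Mmp8* at 298, 3505 and 4895, and *Lyz2*, lysozyme M, at 827, 8653 and 10928. In each of these genes both niacin libraries stood above the vehicle library. At the 5% mark the vehicle values were higher, at 62.1 for *Ly6g* (1 UMI), 1304 for *Wfdc21*, 993 for *Mmp8* and 3166 for *Lyz2*, and all 4 genes were past the fold there too. With the identity cells added, *Lyz2* stood at 3356, 6460 and 10633 and missed the fold in niacin 1 (log2 0.94). *Csf3r* was the reverse, at 4024, 2007 and 1490, and only just reached the fold in niacin 1 (log2 −1.0005). Without shared barcodes it stood at 2837 in niacin 1 (log2 −0.50) and was not past the fold there, nor with a mark of 1% (−0.89), with mixed cells left out (−0.96) or with the identity cells added (−0.95). On the lower side, too, was *Trem1*, an activating receptor, at 488, 182 and 157. *Cxcr2* stood at 3293, 1925 and 1934 and did not reach the fold, but passed it on the lower side at the 5% mark (log2 −1.14 and −1.11). Of 12 secondary and tertiary granule genes 8 were higher and 0 lower (6 and 0 at the 5% mark, and 5 and 1 of 13 with the identity cells added). *Mpo* and *Elane*, enzymes of the primary granules, had no UMI in granule-poor cells of any library, where 3 UMIs correspond to 40.7, 27.2 and 27.8 residual CPM.

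Interferon-stimulated genes made up the group with the most members on the lower side. Of 30 genes 22 were lower in both niacin libraries and 2 higher, with a median log2 difference of −2.46 (20 lower and 2 higher without shared barcodes). The shares over all genes were 16.5% lower and 7.9% higher. *Isg15* (chr4:156199424-156200818), a ubiquitin-like modifier, stood at 1450, 209 and 333 residual CPM in granule-poor cells, and *Rsad2* at 1274, 109 and 194. *Slfn4*, a schlafen family gene of myeloid cells, stood at 3659, 636 and 361, and *Oasl2*, an oligoadenylate synthetase-like gene, at 1545, 300 and 222. *Ifi47*, an interferon-induced GTPase, had 44 UMIs in vehicle 2 and 0 in either niacin library. *Gbp2*, a guanylate-binding protein, stood at 1016, 72.6 and 27.8, with 52% of its vehicle UMIs in 1 cell. At the 5% mark the vehicle values of *Gbp2* and *Ifi47* were both 186 residual CPM, the level of the 3-UMI floor, and *Rsad2* stood at 372, 97.8 and 177 and only just reached the fold in niacin 2 (log2 −1.03). The genes on the higher side were *Ifitm1* (908, 6029 and 1999, with 63.4% of the niacin 2 UMIs in 1 cell) and *Ifitm6* (149, 4930 and 2304, and 149, 494 and 1838 without shared barcodes).

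As a summed share of UMIs outside the selection genes, the group stood at 2.35%, 2.23% and 1.17% in granule-poor cells, so niacin 1 was close to vehicle 2 on this measure. The sum includes 4 *Ifitm* genes that stood higher in niacin 1 than in vehicle 2: beside *Ifitm1* and *Ifitm6* above, *Ifitm2* at 1111, 3750 and 2027 residual CPM and *Ifitm3* at 1992, 3841 and 1758. Per cell, the median share outside the selection genes was 1.398%, 1.08% and 0.637% in granule-poor cells and 0.811%, 0.814% and 1.06% in granule-rich cells. In all other cells vehicle 2 was also highest, at 0.764%, 0.121% and 0.150% of their summed UMIs outside the selection genes. With a selection mark of 5%, 18 of 28 interferon-stimulated genes were lower, 16 of them also lower at 2%. The genes on the higher side there were *Ifitm6* and *Isg15*, while *Ifitm1* missed the fold in niacin 2 (log2 0.91). *Isg15* stood at 62.1, 137 and 221 residual CPM, with vehicle 2 the lowest there and the highest at 2%. The vehicle value rested on 1 UMI, under the floor of 3 UMIs, which correspond to 186 residual CPM there, against 107 UMIs in the 34 granule-poor cells at the 2% mark.

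With each cell thinned to 500 UMIs in all, *Isg15* was seen in 10 of 44 neutrophils of vehicle 2 (22.7%), 1 of 49 of niacin 1 (2.04%) and 2 of 46 of niacin 2 (4.35%). Without thinning, the shares were 34.1%, 20.4% and 32.6%, at median depths of 2396, 5989 and 8755 UMIs. Thinning on all UMIs left fewer UMIs outside the selection genes in the niacin cells, so a second thinning, chosen after seeing the data, took 500 UMIs outside them from each cell and left out 2, 2 and 1 shallower neutrophils. *Isg15* was then seen in 11 of 42 (26.2%), 1 of 47 (2.13%) and 7 of 45 neutrophils (15.6%), so the exact intervals of vehicle 2 and niacin 2, 13.9 to 42.0% and 6.49 to 29.5%, overlapped. In T and NK-marked cells, thinned in this way, it was seen in 4.35%, 0% (0 of 112, exact upper limit 3.24%) and 2.24%. *Ly6g* went the other way, with 3 of 42, 18 of 47 and 24 of 45 neutrophils after that thinning and 0 of 161, 112 and 134 T and NK-marked cells (exact upper limits 2.27%, 3.24% and 2.72%).

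The interferon-stimulated genes were read for GAAA followed after any 2 bases by another GAAA, the core of the interferon-stimulated response element, in the same promoter windows on either strand. It lay in 13 of 25 matched genes of the group, in 0 of 7 selection genes and in 3.46% of 27025 genes. *Isg15* (chr4:156200819-156201068, minus strand), with 3 overlapping matches, and *Rsad2* (chr12:26456453-26456702, minus strand; both RefSeq on GRCm38.p6) carry it as shown, capitals marking the matches.
Isg15: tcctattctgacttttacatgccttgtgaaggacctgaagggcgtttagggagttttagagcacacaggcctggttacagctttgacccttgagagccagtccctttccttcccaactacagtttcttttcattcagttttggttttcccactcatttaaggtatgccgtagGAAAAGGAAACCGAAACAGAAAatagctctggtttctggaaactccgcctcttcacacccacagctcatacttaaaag
Rsad2: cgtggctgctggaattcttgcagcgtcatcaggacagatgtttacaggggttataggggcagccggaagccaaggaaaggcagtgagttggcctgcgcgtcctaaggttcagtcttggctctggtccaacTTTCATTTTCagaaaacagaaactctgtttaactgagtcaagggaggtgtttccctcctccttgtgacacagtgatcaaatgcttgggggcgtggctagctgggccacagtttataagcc

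**Figure D3:**
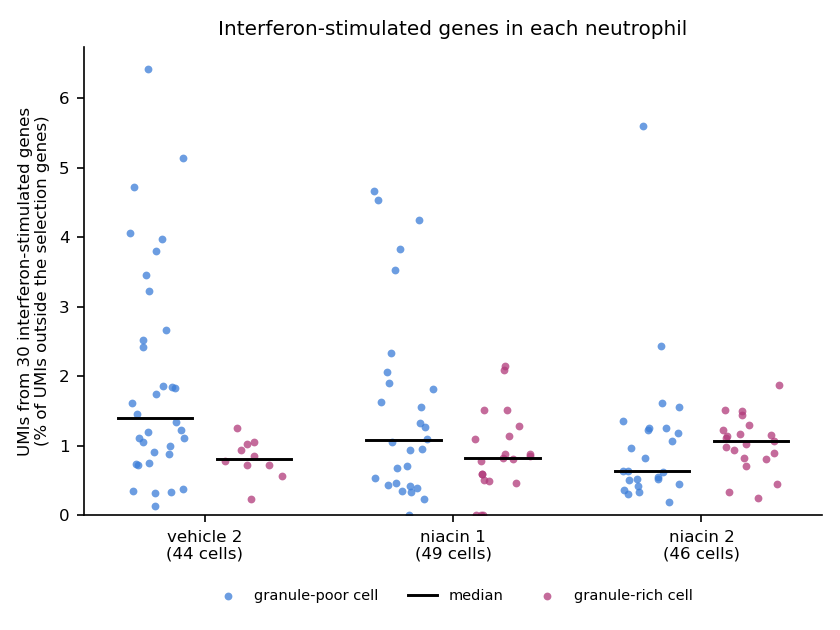
Each point is 1 neutrophil; the vertical axis gives the share of its UMIs outside the selection genes that came from 30 interferon-stimulated genes, by library and granule class, with bars at the medians. Granule-poor cells of vehicle 2 have a median of 1.398% and reach 6.42%, and single granule-poor cells of the niacin libraries reach 4.66% and 5.602%.

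Chemokine and cytokine genes were compared in granule-poor cells as well. Of 14 chemokine and cytokine genes 6 were lower and 1 higher in niacin, with a median of −1.37. Over all genes 16.5% were lower and 7.9% higher, with a median of −0.31. *Il1b* stood at 4716, 1516 and 694 residual CPM, and its antagonist *Il1rn* at 921, 281 and 222. *Cxcl2*, a ligand of CXCR2, stood at 5542, 3123 and 2017 and did not reach the fold in niacin 1, but passed it at the 5% mark (log2 −1.31 and −1.82). The gene on the higher side was *Ccl6*, a myeloid chemokine, at 827, 2497 and 2758. At the 5% mark *Ccl6* stood at 2173, 2660 and 3101 and was not past the fold. With each cell thinned to 500 UMIs outside the selection genes, *Il1b* was seen in 21 of 34 granule-poor cells of vehicle 2, 12 of 28 of niacin 1 and 5 of 25 of niacin 2. Thinned to 500 UMIs in all, it was seen in 24, 8 and 6 of them, and unthinned in 28, 16 and 12. In T and NK-marked cells thinned outside the selection genes it was seen in 2 of 161, 0 of 112 (exact upper limit 3.24%) and 0 of 134 (2.72%).

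*Cxcl2* was also compared with cells that carried monocyte or microglia markers. Over all neutrophils it stood at 2734, 905 and 561 CPM, against 206, 1087 and 105 CPM in cells with monocyte markers and 3.96, 9.03 and 1.09 CPM in cells with microglia markers. Neutrophils stood above both in vehicle 2 and niacin 2, and in niacin 1 the monocyte-marked cells stood higher in CPM over all UMIs. Those totals include the selection genes, which lowers the CPM of other genes in the niacin neutrophils. Granule-poor cells of niacin 1 stood at 3123 residual CPM and granule-rich cells at 361. The niacin 1 order thus depends on the totals and the class used. Macrophages, dendritic cells and basophils were not compared. *Cxcl1* and *Csf3*, another CXCR2 ligand and the granulocyte growth factor, had no UMI in the neutrophils of any library.

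Of 20 genes named for tumor-associated or suppressive neutrophils 9 were lower and 3 higher in niacin, with a median of −1.03. The shares over all genes were 16.5% lower and 7.9% higher. *Ptgs2*, the prostaglandin-making enzyme COX-2, stood at 799, 109 and 185 residual CPM in granule-poor cells. *Cd274*, which encodes PD-L1, had 16, 1 and 3 UMIs and stood at 217, 9.08 and 27.8. *Wfdc17* was on the higher side, at 352, 6574 and 1693, with 74.3% of the niacin 2 UMIs in 1 cell. It missed the fold in niacin 2 at the 5% mark (log2 0.76) and with the identity cells added (0.77). *Acod1*, which makes itaconate, was among the 10 that led the lower side, at 1626, 72.6 and 74.0, with 48.3% of its vehicle UMIs in 1 cell.

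*Hcar2*, the receptor for niacin, was detected in granule-poor neutrophils of every library, at 393, 99.9 and 55.5 residual CPM from 29, 11 and 6 UMIs. Without shared barcodes it stood at 393, 183 and 59.0 and only just passed the fold in niacin 1 (log2 −1.06). Among 11 genes of the receptor and of prostaglandin and leukotriene synthesis, 3 were lower in niacin (*Hcar2*, *Ptgs2* and *Ptges3*) and 2 higher. Over all genes 16.5% were lower and 7.9% higher, and none of the lists in this paragraph was tested against those shares. *Alox5ap*, the activator of leukotriene synthesis, was higher at 1111, 4512 and 2646. *Prkcd* stood at 434, 363 and 389 residual CPM, within the fold. Of 11 NADPH oxidase and protein kinase C genes 3 were higher, among them *Cybb* at 94.9, 354 and 796, and 1 lower. The counts were 0 higher and 1 lower of 12 with the identity cells added, and 1 and 1 of 11 in cells of at least 2000 UMIs. Of 18 glycolysis genes 4 were higher, such as *Gapdh* at 434, 2279 and 1462, and 0 lower. With the identity cells added, 1 was higher and 2 lower of 20, with a median log2 difference of −0.12 beside 0.61 without them. *Cybb* missed the fold in niacin 1 at the 5% mark (log2 0.96), and with the identity cells added *Cybb*, *Gapdh* and *Ptges3* were not past it.

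Of 20 trafficking receptors 2 were higher and 3 lower, near the shares over all genes (7.9% and 16.5%): *Itgb2*, the β2 integrin chain, stood at 298, 799 and 833, and *Cxcr4*, the marrow-retention receptor that also rises on aged neutrophils, at 1220, 291 and 481. At the 5% mark *Cxcr4* stood at 621, 245 and 520 and was not past the fold in niacin 2 (log2 −0.25). Of 17 inflammasome and cell death genes 6 were lower and 1 higher, with *Nlrp3* at 501, 118 and 194. *Mcl1*, a survival factor of neutrophils, stood at 2493, 2016 and 1342, within the fold. Of 23 Fc, Toll-like and C-type lectin receptors 6 were lower, including *Tlr2* and *Tlr4*, and 1 higher. Of 16 transcription factors 3 were lower, including *Junb* at 3889, 1462 and 1490, and 0 higher; the lower share was again near that over all genes. *Junb* was not past the fold in niacin 1 without shared barcodes (log2 −0.88). With the identity cells added, *Itgb2*, *Nlrp3*, *Junb* and *Tlr2* were not past it, nor was *Tlr2* in cells of at least 2000 UMIs.

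**Figure D4:**
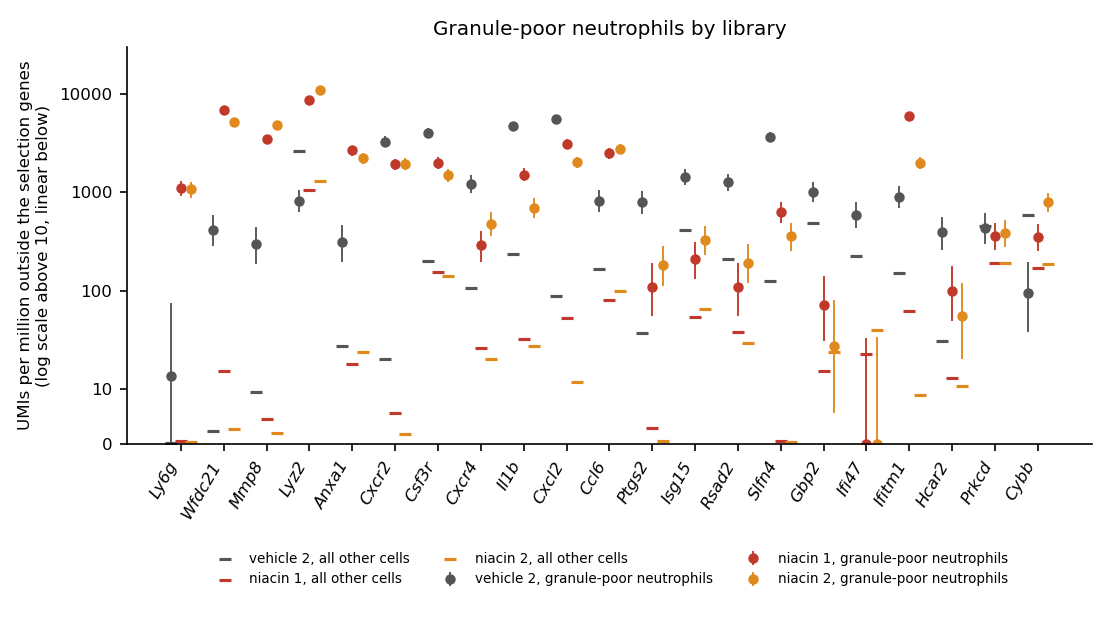
Levels of 21 genes in granule-poor neutrophils, in residual CPM (UMIs per 1000000 outside the selection genes, log scale above 10, linear below); points with 95% Poisson intervals are the 3 libraries and dashes are all other cells of the same library. *Ly6g*, *Wfdc21*, *Mmp8* and *Lyz2* are lowest in vehicle 2, and *Il1b*, *Ptgs2*, *Isg15*, *Rsad2* and *Slfn4* are highest there; the intervals cover counting error and not the spread between cells or mice.

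Transcripts of other cell types were low in the neutrophils and differed between libraries. All 4 measured hemoglobin genes were higher in granule-poor cells of niacin, with *Hbb-bs* at 0, 763 and 453 residual CPM, while all other cells held 2368, 38000 and 33417. Microglia genes took 0.0664%, 0.0363% and 0.331% of granule-poor UMIs, the last with 1 cell at 2.67%. Monocyte genes took 0.199%, 0.194% and 0.193%, and MHC class II genes 0.0434%, 0.00363% and 0.0139%. Choroid plexus genes took 0.00949%, 0.0390% and 0.497%, with 92.6% of the niacin 2 UMIs of *Ttr* in 1 cell. Leaving out neutrophils with at least 1% of UMIs from another cell type's list kept 44, 47 and 44 cells, and the same 22 of 30 interferon-stimulated genes were lower and 3 higher, beside 759 and 364 of 4156 genes in all. A pair of cell cycle genes was among the 10 that led the higher side over all neutrophils, but *Ube2c* had 91.3% and 100% and *Top2a* 84.6% and 100% of their niacin 1 and niacin 2 UMIs in 1 cell of each library.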

How the data were processed

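Single-cell libraries (10x 3′ chemistry, version 3.1) were made by the authors and, per the labels, counted with Cell Ranger 3.1 against mm10; the deposited matrices hold UMI counts per gene and barcode, not normalized. Intronic reads and strand use are not given in the sources used here. Tissue of several mice was pooled per library, so replicates are libraries and no mouse can be told apart. From the counts, barcodes with at least 200 genes and at most 20% mitochondrial UMIs were kept, and a barcode found in another library was dropped unless it held 5 times the UMIs of its copy. No doublet caller was run. The members, gene lists and tests were chosen with earlier results of these data known, and the comparison in granule-poor cells was chosen after seeing the data, as were the 8 identity genes used below the 2% mark.

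Counts were summed per library and class with Python 3.11.15 (numpy 2.4.6, scipy 1.17.1, pandas 2.3.3; figures with matplotlib 3.10.9). Levels carry exact Poisson intervals and shares exact Clopper-Pearson intervals at 95%, which cover counting error only. Granule-rich and granule-poor cells were tested with edgeR 4.0.16 in R 4.3.3 (TMM, filterByExpr, quasi-likelihood test, library as a block, two-sided, Benjamini-Hochberg over all genes tested); the script was tested on simulated data, and DESeq2 1.42.0 was an alternative. Since nothing ties cells to mice, p-values measure the spread between 3 pooled libraries. Cells with markers of another type were taken as the class whose list had the highest share of UMIs, at least 0.5% from at least 2 genes. Named genes were those of the lists, the 15 leading genes beside other cells, and the 10 genes each way with the largest differences in each comparison; values of the most informative are printed. Gene positions are GENCODE vM21 on GRCm38 and promoter windows RefSeq on GRCm38.p6. Alternatives covered both selection marks, shared barcodes, cell filters, pseudocount, minimum level, totals, granule mark, normalization, the block and each library left out.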

Additional observations from a re-analysis of the deposited data

Results flagged for a closer look

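Cells outside the selection also carried neutrophil genes. Below the 2% mark, 30 kept cells of vehicle 2 and 6 of niacin 1 had a UMI of at least 4 of the 8 genes *Csf3r*, *Cxcr2*, *Mmp9*, *Hdc*, *Il1r2*, *Trem1*, *Clec4d* and *G0s2*, a signal in cells that the comparisons do not use; niacin 2 had 2 such cells. The 8 genes were chosen after seeing the data. Among the neutrophils themselves, 37 of 44, 41 of 49 and 43 of 46 cells met the same rule. The 30 vehicle cells had a median of 0.298% of UMIs in the selection genes and a median depth of 2510 UMIs. With them added to the granule-poor cells, 24 of 30 interferon-stimulated genes were lower in niacin and 2 higher, beside 511 and 200 of 4557 genes in all, and secondary and tertiary granule genes were 5 higher and 1 lower of 13, against 8 and 0 of 12 without them.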

How the results depend on the processing

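The share of neutrophils in vehicle 2 was 1.503% with a selection mark of 5%, 4.76% with all barcodes kept, 4.69% with at most 10% mitochondrial UMIs and 5.85% with the added identity cells, and in niacin 2 it was 2.07% without shared barcodes. In niacin 1 and niacin 2 it was 3.33% and 2.70% with a mark of 5%, 4.03% and 3.31% with all barcodes kept, 3.90% and 3.43% with at most 10% mitochondrial UMIs, and 3.90% and 3.01% with the identity cells. Over all neutrophils, the genes past the fold, higher and lower in niacin, numbered 84 and 346 with a mark of 5%, 11 and 270 with a pseudocount of 50 CPM, 14 and 180 with a minimum of 200 CPM, 178 and 1192 with no minimum, 230 and 223 after centring on the median, and 147 and 1099 with each cell weighted equally. The higher count was 124 without shared barcodes, 217 with totals that leave out the selection genes, 331 in granule-poor cells, 487 in granule-rich cells, and 71 to 85 with either niacin library left out. *Isg15* reversed to 0.96 (log2) with a mark of 5%. With the identity cells added, *Tuba1b* turned to −0.24, *Top2a* to −0.62 and *H2afx* to −0.34, and in granule-poor cells *Zmpste24* turned to −1.42. In granule-rich cells, of which vehicle 2 had 10, the mean log2 difference of niacin minus vehicle turned positive on few UMIs: *Ccr1* 2.03, *Oasl2* 1.91, *Ccl3* 1.64, *Cxcl2* 0.93, *Ptgs2* 0.85, *Slfn5* 0.79, *Hcar2* 0.79, *Il1rn* 0.63, *Isg15* 0.55, *Il1r2* 0.45, *Ccrl2* 0.40 and *Ifit3* 0.37. Vehicle 2 had 0 to 7 UMIs of each, and *Slfn5*, *Ccrl2*, *Ptgs2*, *Hcar2* and *Ifit3* had 0 in vehicle 2 and in 1 niacin library, so their means rest on at most 3 UMIs of the other. Granule-rich against granule-poor cells gave 99 higher and 155 lower genes with DESeq2, 30 and 33 without shared barcodes, and 51 to 309 higher and 106 to 371 lower with each library left out. Without the library block it gave 206 and 265. No paired analysis of niacin and vehicle was run. The vehicle group has 1 library, and the replicate numbers of the sample labels tie no vehicle library to a niacin library. Among the named genes of the granule comparison, *Mmp8* (0.67) stood at −0.46 without vehicle 2, 1.62 without niacin 2 and 2.09 without shared barcodes. *Mmp9* turned from −0.36 to 0.95 without shared barcodes. In all, 901 values kept their direction and side of the threshold, 68 lost it and 12 gained it. Among those gained was *Mmp9* at −0.85 without vehicle 2 (edgeR adjusted p = 0.0133). The cause of these shifts was not tested.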
